A study of Mus musculus with 6 samples.

Results

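In VMH RNA of mice with and without Sirt1 deletion, 10 genes were followed that encode neuropeptides and secreted factors known from neurons of the ventromedial hypothalamus (VMH): Tac1, Adcyap1, Pdyn, Penk, Ucn3, Bdnf, Cbln1, Nptx2, Slit3 and Tnfrsf11b. They were found by gene symbol, which gave 20 of the 45281 probes on the array, and 15 of these probes, from 9 of the 10 genes, passed the detection filter. Sirt1 encodes a NAD-dependent deacetylase, and the study deleted it in SF1 neurons, which are defined by the transcription factor that Nr5a1 encodes. The control group was 3 RNA pools from Sirt1loxP/loxP mice and the SIRT1 deletion group was 3 RNA pools from Sf1-Cre; Sirt1loxP/loxP mice, all on a mixed genetic background and 16 weeks of age. Both groups therefore carried the floxed allele, and only the deletion group carried the Cre transgene, so effects of Cre and of the deletion cannot be told apart. Cre driven by Sf1 acts in SF1 neurons, which are a part of the cells in the dissected tissue. How many mice went into a pool, and whether pools came from separate litters, is not stated in the labels, and every p-value below therefore reflects pool-to-pool spread.

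A neuropeptide is cut from a precursor protein in secretory granules and acts on G protein-coupled receptors of other neurons, mostly more slowly and over a longer range than a fast transmitter. VMH neurons are mainly glutamatergic and use such peptides beside glutamate in circuits for feeding, glucose balance, heat production and defensive behaviour. Pdyn, Penk, Cbln1 and Tac1 are also expressed in hypothalamic areas around the VMH. In bulk RNA like this, fewer cells of a type and less RNA per cell cannot be told apart.

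Each pool was hybridised to 1 Illumina array, on which between 20053 and 20611 probes were detected. The control arrays were brighter before normalisation, with median raw signals of 145.5 to 149.4 against 140.4 to 142.1. Sirt1 had 1 probe, at 7.69 ± 0.11 (mean log2 intensity ± SD, n = 3 control pools) against 7.65 ± 0.13 (n = 3 deletion pools), a difference of -0.03 (95% interval -0.27 to 0.20), so no loss of Sirt1 RNA was detectable. Its position in the transcript is not known here, and it therefore does not check the deletion. Of 18 listed VMH markers 15 were measured, and Fezf1, Sox14, Slc17a6 and Nr5a1 were detected on all 6 arrays. Pomc and Npy of the arcuate nucleus, Hcrt and Pmch of the lateral hypothalamus, and Avp and Oxt of the magnocellular nuclei were also detected on all 6 arrays. Measured were 9 of 12 listed arcuate, 7 of 8 lateral and dorsomedial, and 5 of 8 paraventricular and suprachiasmatic markers. From these lists Otp, Crh and Sim1 were detected on no array, and Lhx9 and Vip on at most 1. Of 14 listed genes of pancreatic acinar cells 12 were measured, and all 12 were lower in the deletion pools, with a mean log2 intensity between 6.86 and 7.08 in control and between 5.73 and 6.15 in deletion pools. Of these genes Try4, Try5, Zg16 and Cpa1 passed the detection filter through the control arrays. The part of the acinar signal in the differences below was not tested.

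Promoter windows were available for 6 of the genes in the RefSeq table of GRCm38.p6 (Tac1, Adcyap1, Bdnf, Pdyn, Ucn3 and Slit3), in 14 windows of 250 bases before an annotated start. These short motifs were searched on both strands: AGGTCA (a nuclear receptor half-site, the core of SF1 sites), TGACG (the half-site of the cyclic AMP response element), CACGTG (an E-box, bound by CLOCK among others) and TATAAA. No match overlaps another in the windows shown. Over all 32851 windows of that length in the table, 14.0% held AGGTCA, 17.8% TGACG, 6.02% CACGTG and 12.4% TATAAA, so single matches are common. The 3 windows below are shown because they hold most of the matches and belong to the 3 genes best known as VMH signals. All are on the plus strand, with matches in capitals and all other bases in lower case. The Tac1 window is chr6:7554811-7555060, the Adcyap1 window is chr17:93198918-93199167 (the downstream of 2 starts) and the Bdnf window is chr2:109692777-109693026 (the fourth of 7 starts).
Tac1: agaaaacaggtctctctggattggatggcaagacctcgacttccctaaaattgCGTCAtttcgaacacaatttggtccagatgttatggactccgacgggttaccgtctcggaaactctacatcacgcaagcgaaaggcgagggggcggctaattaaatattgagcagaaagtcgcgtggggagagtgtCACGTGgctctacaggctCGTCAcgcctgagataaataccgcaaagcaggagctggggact
Adcyap1: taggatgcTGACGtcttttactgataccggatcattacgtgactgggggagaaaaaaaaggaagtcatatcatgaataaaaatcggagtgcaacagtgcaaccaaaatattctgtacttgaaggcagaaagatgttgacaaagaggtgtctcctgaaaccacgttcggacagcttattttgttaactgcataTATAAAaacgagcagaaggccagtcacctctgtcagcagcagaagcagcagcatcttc
Bdnf: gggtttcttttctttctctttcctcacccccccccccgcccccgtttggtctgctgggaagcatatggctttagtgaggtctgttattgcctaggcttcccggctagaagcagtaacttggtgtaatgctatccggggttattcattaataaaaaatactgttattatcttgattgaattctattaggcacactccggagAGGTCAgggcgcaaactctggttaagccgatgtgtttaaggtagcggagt
The Tac1 window held TGACG on the minus strand 197 and 43 bases before the start and CACGTG 61 bases before it. The Adcyap1 window held TGACG 242 bases and TATAAA 58 bases before the start. This Bdnf window held AGGTCA 50 bases before the start, and the window of the third Bdnf start held TGACG on the minus strand. No match to these letters was present in the windows of Pdyn, Ucn3 or Slit3.

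None of the 9 measured genes differed between the groups at a limma adjusted p under 0.05, where 0.105% of all 14221 features did. At an unadjusted p under 0.05 there was 1, Tnfrsf11b, against 8.82% of all features. Of the 9 genes 5 were lower and 4 higher in the deletion pools, with a median log2 difference of -0.02, while 51.5% of all features were lower and their median was 0.00. The adjusted p-values of the 9 genes lay between 0.427 and 0.965. Leaving Tnfrsf11b aside, the 95% intervals of the other 8 genes together span changes from -25.1% to 34%.

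**Figure D1:**
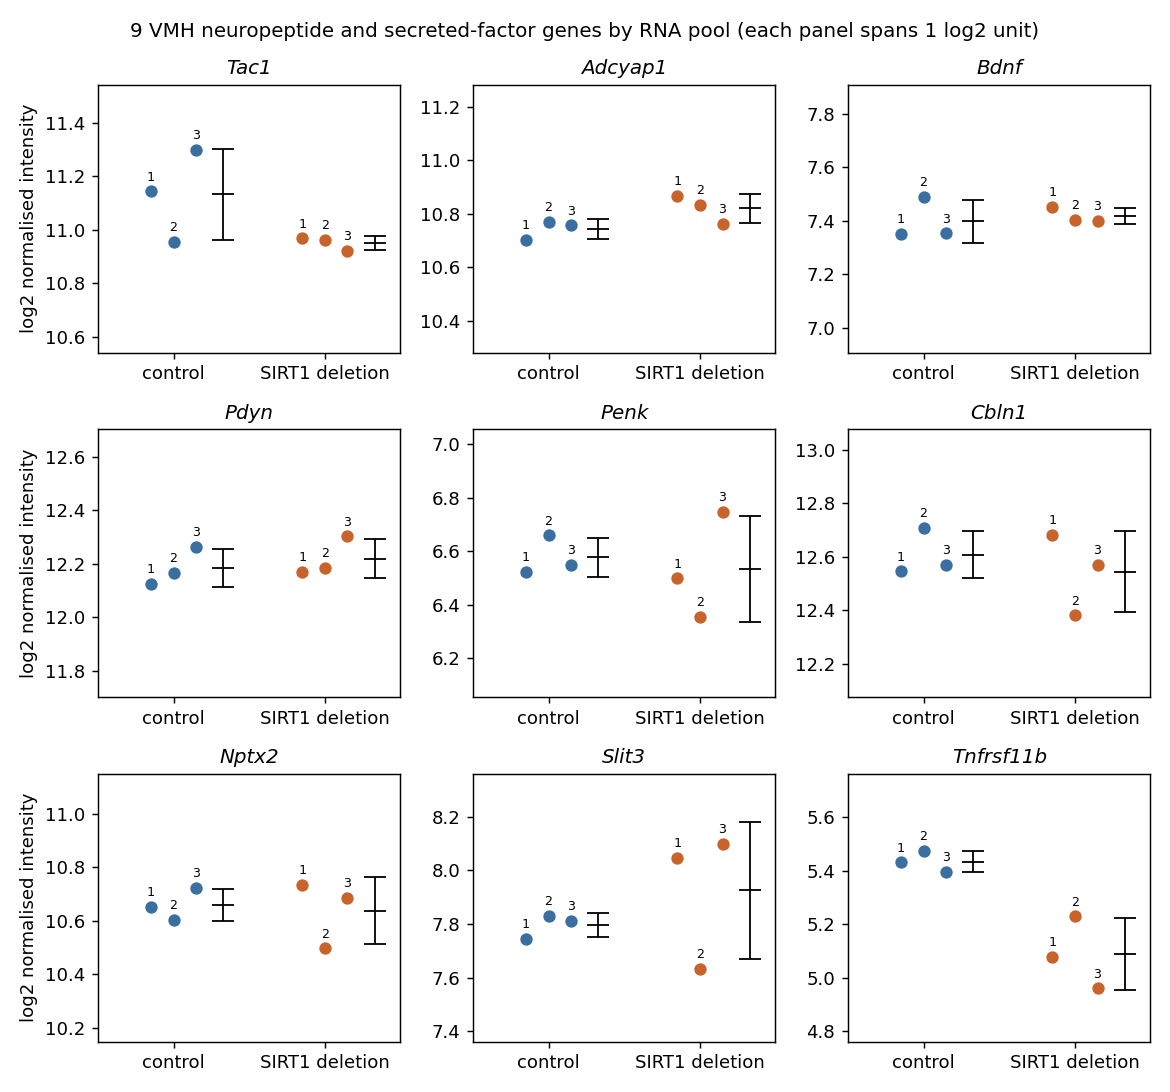
Normalised log2 intensity (vertical axis, 1 log2 unit in every panel) of the 9 measured genes in each control pool (blue) and SIRT1 deletion pool (orange), numbered by replicate, with the mean and SD of the 3 pools beside them in black. The groups overlap in 8 panels, and in the Tnfrsf11b panel all 3 deletion pools, at 4.96 to 5.23, lie under all 3 control pools, at 5.40 to 5.47.

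Tac1 encodes the precursor of substance P and neurokinin A, tachykinins that mark a group of VMH neurons. Controls 1 to 3 had a normalised log2 intensity of 11.14, 10.96 and 11.30, and SIRT1 deletion 1 to 3 had 10.97, 10.96 and 10.92. The deletion pools lay close together near the lowest control and overlapped the controls only through control 2. The difference was -0.18 (95% interval -0.42 to 0.05), a change of -11.9%, with a limma adjusted p of 0.619 and an exact permutation p of 0.3 (two-sided, where 3 against 3 pools cannot give less than 0.1). Without control 3 the difference was -0.10. In the raw signal of this probe the pools did not overlap, at 2247 to 2840 in control and 1936 to 2008 in deletion pools. The arrays also differed in overall brightness. Raw pools of the probes that represent Adcyap1, Bdnf, Cbln1, Nptx2 and Tnfrsf11b did not overlap either, with the deletion pools lower. The share of all features with this raw pattern was not counted. A second Tac1 probe, annotated to a cDNA clone, was not detected on any array.

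Adcyap1 encodes PACAP, a peptide that raises cyclic AMP in its target cells and is abundant in the VMH. By its only probe, controls 1 to 3 had a log2 intensity of 10.70, 10.77 and 10.76, and SIRT1 deletion 1 to 3 had 10.86, 10.83 and 10.76. The groups overlapped, since SIRT1 deletion 3 lay below control 2. The difference was 0.08 (95% interval -0.11 to 0.26, limma adjusted p = 0.795), and it was -0.10 when arrays were scaled by their medians, a setting in which the median of all features was -0.13 and Adcyap1 lay 0.03 above it. Its raw signal was 1868 to 1997 in control and 1736 to 1843 in deletion pools, the opposite order to the normalised values.

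Pdyn and Penk encode the precursors of the opioid peptides dynorphin and enkephalin. The Pdyn probe that represents the gene had log2 intensities of 12.12, 12.17 and 12.26 in controls and 12.17, 12.18 and 12.30 in deletion pools, so the groups lay over each other. The difference was 0.03 (95% interval -0.16 to 0.23, limma adjusted p = 0.927). A second Pdyn probe to the same transcript had a difference of -0.06 (-0.33 to 0.21), within the interval of the first, and control 3 was the highest control on both probes. Penk had log2 intensities of 6.52, 6.66 and 6.55 in controls and 6.50, 6.36 and 6.75 in deletion pools. SIRT1 deletion 2 was thus the lowest and SIRT1 deletion 3 the highest of all 6 pools, and the Penk difference was -0.04 (95% interval -0.30 to 0.22, limma adjusted p = 0.93). Its sign turned without SIRT1 deletion 2 (0.05).

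Ucn3 encodes urocortin 3, a ligand of the CRF receptor type 2 that is made in several hypothalamic areas. Its 1 probe was detected in control 2 and in SIRT1 deletion 3 only, so it failed the filter. The raw signal was 151.6, 156.3 and 145.7 in controls and 142.5, 144.9 and 146.8 in deletion pools, close to the array medians. No difference was tested for it, because 4 of the 6 values were not above background.

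Bdnf encodes brain-derived neurotrophic factor, which acts through the receptor TrkB (Ntrk2) and whose loss from the VMH region is known to cause overeating in mice. Its transcripts start at several alternative first exons that share the coding exon. Of its 6 probes 4 passed the filter. The probe that represents the gene had log2 intensities of 7.35, 7.49 and 7.35 in controls and 7.45, 7.40 and 7.40 in deletion pools, with all deletion pools inside the range of the controls. The difference was 0.02 (95% interval -0.17 to 0.21, limma adjusted p = 0.961). The other 3 probes were dim, with control means of 4.92 to 5.87, where the lowest detected values per array lay between 4.86 and 4.90. Their differences were -0.13, -0.13 and -0.14, each with an interval that includes 0 and the value of the first probe. Averaged over the 4 probes Bdnf had a difference of -0.09. Of the remaining probes, 1 was detected on no array and 1 on 2 arrays.

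**Figure D2:**
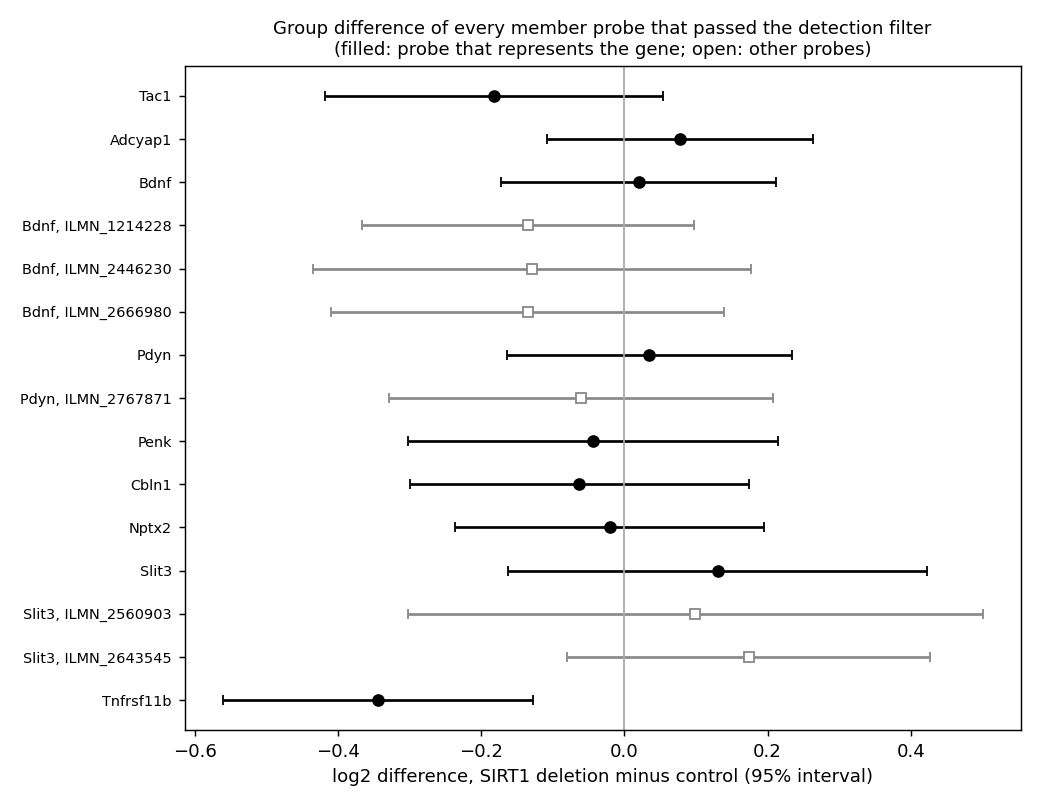
Log2 difference, SIRT1 deletion minus control, with its 95% interval from limma (horizontal axis) for the 15 probes that passed the detection filter (vertical axis, by gene), with filled circles for the probe that represents each gene and open squares for other probes of the same gene. Only the interval of Tnfrsf11b, from -0.56 to -0.13, leaves out 0, and the 3 other Bdnf probes lie to the left of the first while the 3 Slit3 probes all lie to the right of 0.

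Cbln1 and Nptx2 encode secreted proteins that organise synapses. Cerebellin 1 bridges neurexins to delta-type glutamate receptors, and neuronal pentraxin 2 gathers AMPA receptors at excitatory synapses and is induced by neuronal activity. Cbln1 had log2 intensities of 12.54, 12.71 and 12.57 in controls and 12.68, 12.38 and 12.57 in deletion pools. SIRT1 deletion 2 stood below the other 5 pools, and the difference was -0.06 (95% interval -0.30 to 0.17, limma adjusted p = 0.878), turning to 0.02 without that pool. Nptx2 had 10.65, 10.60 and 10.72 in controls and 10.73, 10.50 and 10.68 in deletion pools. Here too SIRT1 deletion 2 was the lowest, and the difference was -0.02 (95% interval -0.24 to 0.20, limma adjusted p = 0.965), or 0.05 without that pool. A second Nptx2 probe was not detected on any array.

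Slit3 encodes a secreted guidance protein that repels axons through Robo receptors. Its representing probe was annotated to a cDNA clone. That probe had log2 intensities of 7.74, 7.83 and 7.81 in controls and 8.05, 7.63 and 8.10 in deletion pools. SIRT1 deletion 1 and 3 lay above all controls and SIRT1 deletion 2 below them, so that the deletion pools had an SD of 0.26 and the controls one of 0.05. The difference was 0.13 (95% interval -0.16 to 0.42, limma adjusted p = 0.783), 0.28 without SIRT1 deletion 2 and 0.04 without SIRT1 deletion 3. The other 2 Slit3 probes, both dim, had differences of 0.10 and 0.17. For the probe with 0.17, annotated to a RefSeq transcript, SIRT1 deletion 2 was the highest pool, at 5.64, not the lowest. With median scaling the representing probe had -0.01, which was 0.12 above the median of all features in that setting.

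Tnfrsf11b encodes osteoprotegerin, a secreted decoy receptor that binds the cytokine RANKL, best known from bone. It was the only one of these genes whose normalised log2 intensities did not overlap between the groups. Of all features, 7.21% had all deletion pools below all controls. By its 1 probe, controls 1 to 3 had a log2 intensity of 5.43, 5.47 and 5.40, and SIRT1 deletion 1 to 3 had 5.08, 5.23 and 4.96. All 6 values were detected but dim, the lowest of them within about 0.1 of the lowest detected value of its array (4.87). The difference was -0.34 (95% interval -0.56 to -0.13), a change of -21.2%, with an unadjusted limma p of 0.00605, an adjusted p of 0.427 and an exact permutation p of 0.1, the smallest possible. It lay between -0.41 and -0.28 with any 1 pool left out. Its size depended on the background correction, with -0.09 without one (unadjusted limma p = 0.0853) and -0.11 in the authors' deposited table (unadjusted limma p = 0.0707). In the same settings Tac1 had unadjusted limma p-values of 0.0475 and 0.0491, with adjusted values of 0.49 and 0.488. The mean log2 intensity of 7 measured markers of meninges, out of 12 listed, was 6.52, 7.68 and 7.28 in controls and 6.48, 7.12 and 6.34 in deletion pools, of which Dcn, Fbln1, Igf2 and Ogn were detected on all 6 arrays, and Col3a1 and Slc6a20a on none. Within the deletion group that mean and Tnfrsf11b had the same order of pools. Within the controls both were highest in control 2, but the mean was lowest in control 1 and Tnfrsf11b in control 3. Control 1 and SIRT1 deletion 1 had close means, 6.52 and 6.48, with Tnfrsf11b at 5.43 and 5.08. The part of these markers in the result was not tested.

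**Figure D3:**
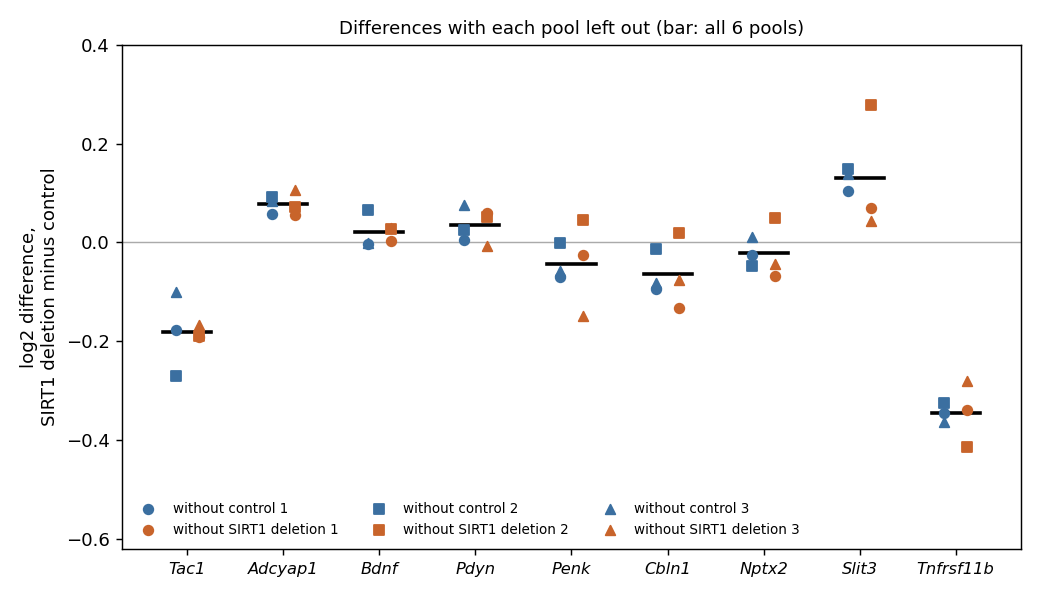
Log2 difference, SIRT1 deletion minus control (vertical axis), of the 9 genes (horizontal axis) with all 6 pools (black bars) and with 1 pool left out in turn (blue, a control pool; orange, a deletion pool; circle, square and triangle, replicates 1, 2 and 3). Tac1, between -0.27 and -0.10, and Tnfrsf11b, between -0.41 and -0.28, stay under 0, Adcyap1 and Slit3 stay above it, and the other 5 genes cross it.

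Among the 9 genes SIRT1 deletion 2 was the lowest pool for 4 (Penk, Cbln1, Nptx2 and Slit3), SIRT1 deletion 3 for 2, and control 1 for 3. The SD was smaller in the deletion group for Tac1 (0.03 against 0.17) and Bdnf (0.03 against 0.08), about the same in both for Pdyn (0.07) and larger in the deletion group for the others. The median over the 9 genes of the deviation from the control mean was 0.05, -0.16 and 0.02 in SIRT1 deletion 1 to 3. The 9 genes thus had no common direction across the deletion pools.

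Settings that left all features shifted down also shifted most of these genes down. With no scaling and no background correction, the raw signals of all 20 probes were lower in the deletion group on average, and the median of all features was -0.11. Relative to that median, Tac1 was at -0.24, Cbln1 at -0.14 and Nptx2 at -0.08, Pdyn at -0.03, Tnfrsf11b at -0.05 and Slit3 at 0.07, while Adcyap1, Bdnf and Penk lay within 0.01 of it. Without background correction the differences of dim probes are compressed, so these distances cannot be compared between bright and dim genes. After background correction and quantile normalisation Cbln1 had -0.06 and Nptx2 -0.02. With median scaling, where the median of all features was -0.13, Tac1 was at -0.22 relative to it, Tnfrsf11b at -0.26, Cbln1 at -0.11, Nptx2 at -0.06 and Penk at -0.02. Slit3 was at 0.12 relative to that median, Adcyap1 at 0.03, Bdnf at 0.02 and Pdyn at 0.0015. Adcyap1, Bdnf, Pdyn and Slit3 thus fell under 0 in these settings with the median of all features, and with median scaling all 4 stayed above that median.

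**Figure D4:**
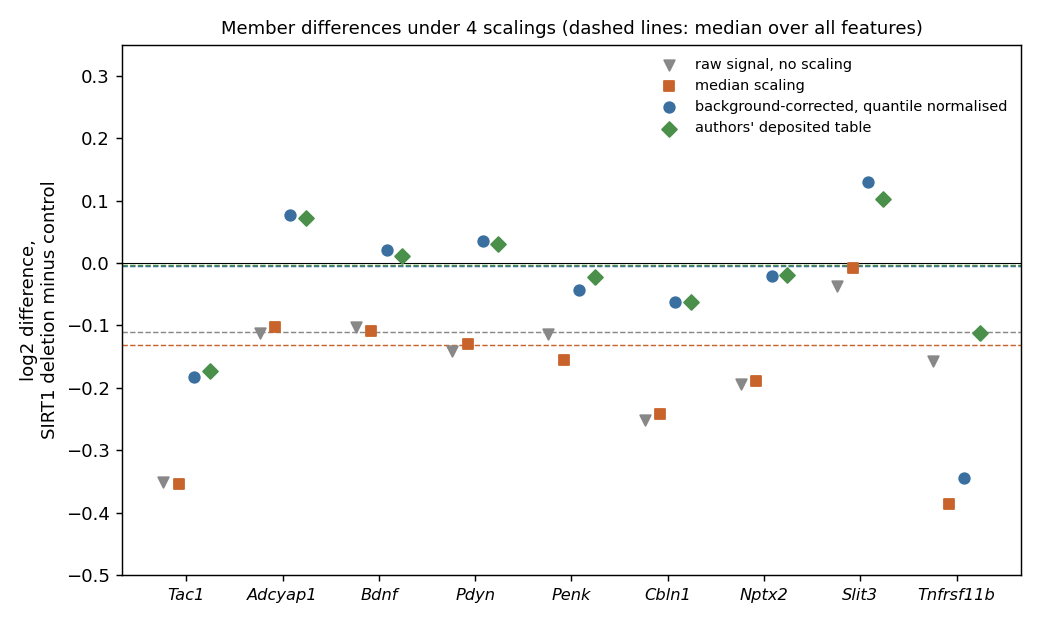
Log2 difference, SIRT1 deletion minus control (vertical axis), of the 9 genes (horizontal axis) in raw signal (grey), after median scaling (orange), after background correction and quantile normalisation (blue) and in the authors' deposited table (green), with dashed lines at the median over all features of each. The raw and median-scaled medians lie at -0.11 and -0.13. For every gene but Tnfrsf11b the points of both settings lie under the blue ones, by amounts that differ between genes. For Tnfrsf11b the raw point lies above the blue one, at -0.16 against -0.34.

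Receptors and partners through which these factors act were measured for 14 of 27 listed genes. None passed a limma adjusted p of 0.05. The list had 11 lower and 3 higher, with a median of -0.04, where 51.5% of all features were lower. At an unadjusted limma p under 0.05 there was 1, against 8.82% of all features. That gene was Oprk1, the kappa opioid receptor at which dynorphin acts, with log2 intensities of 6.66, 6.71 and 6.85 in controls and 6.66, 6.42 and 6.24 in deletion pools. The deletion pools reached down further and met the controls at SIRT1 deletion 1, and the difference was -0.30 (95% interval -0.58 to -0.02, limma adjusted p = 0.542). The Oprk1 difference was -0.20 when SIRT1 deletion 3 was left out and -0.13 without background correction. Its unadjusted limma p was 0.138 with that pool left out and 0.0628 where the replicate number was a block. Ngfr, the p75 neurotrophin receptor, had -0.13 and Tnfrsf11a, the receptor of RANKL, -0.12, both with groups that overlapped. When 1 pool was left out Ngfr moved to -0.05 (SIRT1 deletion 1) or -0.24 (SIRT1 deletion 2), and Tnfrsf11a to -0.04 (control 2) or -0.23 (control 3). Ntrk2 had -0.05, the PACAP receptor gene Adcyap1r1 0.00, and the substance P receptor gene Tacr1 -0.03. Crhr2, the receptor of urocortin 3, did not pass the filter.

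Of 20 listed relatives of these genes 8 were measured, 5 lower and 3 higher, with a median of -0.01, where 51.5% of all features were lower. None passed a limma adjusted p of 0.05. Nptx1, the paralog of Nptx2, had log2 intensities of 6.98, 6.52 and 6.47 in controls and 6.78, 7.43 and 7.60 in deletion pools. The groups overlapped because control 1 lay above SIRT1 deletion 1, and the difference was 0.61 (95% interval 0.12 to 1.11, unadjusted p = 0.021, limma adjusted p = 0.525). It thus had a larger difference than Nptx2, and the difference between the paralogs was not tested. The paralogs Cbln2 and Cbln4 had -0.12 and -0.02, Slit2 0.01, and Tac2, which encodes neurokinin B, -0.01.

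Genes of peptide processing and granules were measured for 9 of 13 listed, 7 higher and 2 lower, with a median of 0.07. Of all features 51.5% were lower. None of the 9 passed a limma adjusted p of 0.05 or an unadjusted p of 0.05. Furin, a convertase, had 0.14, and Scg5, the chaperone of the convertase PC2, 0.08, both with overlapping groups. Chga, which encodes the granule protein chromogranin A, had 0.11 with all deletion pools (9.66 to 9.69) above all controls (9.54 to 9.59), as 7.04% of all features did. The other 2 Chga probes had 0.08 and -0.10. With median scaling Chga had -0.05, Furin -0.02 and Scg5 -0.09, which was 0.08, 0.11 and 0.04 above the median of all features in that setting.

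The VMH marker list had 10 lower and 5 higher of 15 measured genes, with Adcyap1 and Bdnf among the higher and a median of -0.06. Foxp2, among the higher, was detected on 1 control array and 3 deletion arrays. Gda, among the lower, was detected on 3 control arrays and 2 deletion arrays. The filter thus kept Foxp2 through the group where it was high. Of all features 51.5% were lower. None of the list passed a limma adjusted p of 0.05, and 3 of 15 had an unadjusted p under 0.05, against 8.82% of all features. Nos1, which encodes neuronal nitric oxide synthase, had 0.72 by its representing probe (limma adjusted p = 0.206) and -0.17 by its other probe. It passed in unscaled raw signal (limma adjusted p = 0.031) and where limma's prior was robust and followed the intensity (adjusted p = 0.019), and had 0.28 as the mean of its detected probes (limma adjusted p = 0.554). Sox14, a transcription factor, had -0.36. Nr5a1 had 0.45 by a dim probe, 0.24 with an offset of 50, 0.11 without background correction, 0.15 in the authors' deposited table and 0.04 in unscaled raw signal. Tac1 and Tnfrsf11b thus lay on the side of Sox14, and Nr5a1 on the other, each without passing over all features in arrays that were scaled.

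For 5 of the genes the named genes with the most similar profile over the 6 pools were looked up among 11048, as a description. The highest Pearson correlations with Tac1 were those of Polr2e (0.99), Tex30 (0.99) and Zfp653 (0.98), and with Tnfrsf11b those of Exosc8 (0.996), Ago3 (0.99) and Coro2a (0.99). Adcyap1 was most similar to Dgke (0.98), Bdnf to Il10ra (0.99) and Penk to Klhdc3 (0.99). Between 43 and 109 genes had a correlation over 0.9 with each of the 5, from only 6 values that share arrays and groups.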

How the data were processed

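Following Trizol extraction and a column clean-up with DNase, biotinylated cRNA was hybridised to Illumina arrays, per the labels' protocols. Per the column headers, the deposited table holds an average signal and a detection p-value per probe and array. The headers do not state its scale. With lowest values per array of 104 to 112, it was treated as linear and neither background-subtracted nor scaled. The authors' second deposited table holds quantile-normalised intensity values with a common median of 134.4. Scanner software was not stated. Symbols came from the platform annotation (34885 probes with 1 symbol, 18 with several, 10378 with none).

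Background was corrected by normexp from the detection p-values (limma 3.58.1 in R 4.3.3), followed by an offset of 16, quantile normalisation and log2 transformation, which compresses differences of dim probes. Probes with detection p under 0.05 on at least 3 arrays were kept. Each gene was represented by its brightest such probe on average, giving 14221 features. The test was limma's lmFit and eBayes with Benjamini-Hochberg adjustment over all features. Other probes of a gene came from the same test with every probe a feature. The number of arrays limits the precision. Tested on data simulated for SIRT1 deletion against control with 14221 features, recovery was 7.2% at a 1.25-fold change, 76.8% at 1.5-fold and 99% at 2-fold. Each simulation held 200 changed features, and 149.4 features passed on average, against 15 in the real data. The adjusted threshold was thus easier to pass in the simulations, and recovery in the real data may be lower. Figures were drawn with matplotlib 3.10.9 in Python 3.11.15.

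The 10 genes, the 18 lists and the naming rule (of each list up to 3 genes of lowest p, printed here for the receptors, relatives, processing genes and VMH markers, and the 3 most similar profiles) were chosen with earlier results of these data known. Other genes were named after their values were seen. Alternatives covered background correction, offset, scaling, filter, probe rule, variance prior, array weights, the replicate block and each pool left out. The sample titles give replicate numbers but do not state a pairing of pools.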

Additional observations from a re-analysis of the deposited data

How the results depend on the processing

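No alternative that scaled the arrays brought any of the 9 genes past a limma adjusted p of 0.05, and their count stayed at 0, also with any 1 pool left out and at 0.10. With raw signal left unscaled, an alternative added after seeing the data, 3 of them (Tac1, Cbln1 and Tnfrsf11b, all lower) and 3108 features (12 higher, 3096 lower) passed, on arrays that differed in overall brightness. All features past the threshold numbered 15 (8 higher, 7 lower), 9 without a filter, 4 with detection p under 0.01 on all 6 arrays (where Tnfrsf11b was left out), 29 with an intensity trend and robust prior, 21 with median scaling (7 higher, 14 lower), 19 with an offset of 50 (8 higher, 11 lower) and between 10 and 14 with 1 pool left out. With the replicate number as a block 10 features and 0 of the 9 genes passed. The deviations of same-numbered pools correlated at -0.05, -0.04 and -0.02, so no shared deviation was seen. This cannot decide whether same-numbered pools were paired by design. The alternatives with 1 pool left out kept the normalisation and features of all 6 pools.

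Signs turned as follows. With median scaling, where the median of all features was -0.13 and all 7 genes lay above it, Adcyap1 had -0.10, Bdnf -0.11, Pdyn -0.13, Slit3 -0.0076, Chga -0.051, Furin -0.020 and Scg5 -0.091. In unscaled raw signal, Adcyap1 had -0.11, Bdnf -0.10, Pdyn -0.14, Slit3 -0.037, its other probes -0.043 and -0.028, Chga -0.066, Furin -0.038 and Scg5 -0.10. As the mean of detected probes, Bdnf had -0.095 and Pdyn -0.013. With 1 pool left out, Bdnf ranged from -0.0038 (without control 1) to 0.066, with -0.0022 without control 3. Pdyn ranged from -0.0067 (without SIRT1 deletion 3) to 0.075, and its other probe from -0.16 to 0.041 (without control 3). Penk ranged from -0.15 to 0.045, Cbln1 from -0.13 to 0.018 and Nptx2 from -0.068 to 0.050, each highest without SIRT1 deletion 2, and Nptx2 also had 0.011 without control 3. A dim Slit3 probe ranged from -0.094 (without SIRT1 deletion 3) to 0.26. The cause was not tested. Tac1, Tnfrsf11b, Oprk1, Sox14, Nr5a1 and Nptx1 kept their sign in all alternatives that gave a value.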

Other observations

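Peptides of neighbouring nuclei were measured beside those of the VMH. Trh, which encodes thyrotropin-releasing hormone, had log2 intensities of 11.29, 11.46 and 11.29 in controls and 11.65, 11.49 and 11.69 in deletion pools. All deletion pools lay above all controls, as for 7.04% of all features, with a difference of 0.26 (95% interval 0.04 to 0.48), and a limma adjusted p of 0.531. Hcrt, the orexin precursor, had -0.25 and Npy 0.22, both with overlapping groups. None of the arcuate (9 measured), lateral and dorsomedial (7) or paraventricular and suprachiasmatic (5) markers passed a limma adjusted p of 0.05, with medians of -0.01, 0.00 and -0.10, of which the lateral list holds Pdyn, and Trh was the only one of them at an unadjusted p under 0.05.

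Markers of other cells and areas had medians of 0.09 for amygdala and striatum (a list that holds Penk), 0.08 for thalamus, 0.14 for oligodendrocytes, 0.03 for astrocytes, 0.07 for microglia, -0.02 for endothelium, -0.55 for meninges, 0.25 for tanycytes and ependyma and -0.08 for choroid plexus, with no member of any past a limma adjusted p of 0.05. At an unadjusted limma p under 0.05 there were 3 of 8 microglia markers (Aif1 and C1qb higher, P2ry12 lower), against 8.82% of all features. There were also 2 of 5 of tanycytes and ependyma, 1 of 7 of oligodendrocytes and 1 of 6 of endothelium, these 4 all higher. None was in the amygdala and striatum, thalamus, astrocyte, meninges or choroid plexus lists. Rax, from the tanycyte list, was detected on 1 control array and 3 deletion arrays. The filter thus kept Rax through the group where it was high. Of the 12 measured pancreatic acinar genes, 5 passed, all lower, against 0.105% of all features, and the list had a median of -1.06. Try4, Try5 and Zg16 were detected on control arrays only, and Cpa1 on 3 control arrays and 1 deletion array. The filter thus kept these genes through the group where they were high, which fixed their direction. That list was written with the calls of these data known and is not independent evidence.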
